A study of Mus musculus with 12 samples.

Results

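The 10 genes described here encode enzymes that modify and crosslink collagen. They are the lysyl oxidases Lox, Loxl1, Loxl2, Loxl3 and Loxl4, the alpha subunits of collagen prolyl 4-hydroxylase P4ha1, P4ha2 and P4ha3, and the procollagen lysyl hydroxylases Plod1 and Plod2. They were chosen by name, with no threshold on a measured value, and each symbol matched 1 row of the count table. They make up 10 of its 55401 genes, and all 10 were among the 17699 that passed the filter on low counts.

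Collagen chains are hydroxylated in the endoplasmic reticulum before they fold. Prolyl 4-hydroxylase makes the hydroxyprolines that keep the collagen helix stable at body temperature, and lysyl hydroxylases make hydroxylysines, which carry sugars and take part in crosslinks. After secretion, the copper-dependent lysyl oxidases turn lysines and hydroxylysines of collagen and elastin into aldehydes that join neighbouring molecules. In the heart these enzymes act mainly on matrix laid down by fibroblasts, and crosslinked collagen is known to stiffen the ventricular wall.

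RNA of mouse left ventricle was sequenced in 12 libraries, 3 for each of 4 groups. The mice either were wild type or carried Prkca T497A, a point mutation that puts alanine in place of a threonine of protein kinase C alpha, and each had been through sham surgery or transverse aortic constriction (TAC). In TAC the aorta is narrowed with the help of a 27-gauge needle, which raises the pressure against which the left ventricle pumps. The groups were therefore wild type after sham, wild type after TAC, T497A after sham and T497A after TAC, all operated at 10 weeks of age and sampled 1 week later, at 11 weeks. Whether the mutation was on both alleles, and how it was brought into these animals, is not given in the sources used here. The labels do not say that each library is a separate animal, so p-values measure the spread between these libraries, which may be technical. Levels are given as CPM, a library's counts of a gene scaled to its total with edgeR's TMM factors. Genes count as called where the p of edgeR's quasi-likelihood test, adjusted over 17699 genes by Benjamini and Hochberg, was under 0.05. The error given with a log2 fold change is its standard error.

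Total counts ran from 58932759 to 72594085 per library. The libraries labelled T497A sham stood apart from the other 9 in Xist and Ddx3y. Xist, expressed from the inactive X chromosome, was at 184 ± 28.3 CPM (SD, n = 3) there and at group means of 0.461 to 0.65 elsewhere, and Ddx3y of the Y chromosome was at 0.252 ± 0.148 CPM (SD, n = 3) there and at 80.1 to 105 elsewhere. Between the sham groups 104 autosomal genes were called with at least a 4-fold difference, and 95 of them had the opposite sign after TAC. Of the 104, 33 (31.7%) lay on chromosome 11, which holds Prkca, P4ha2 and 8.25% of the autosomal genes tested. The levels of these 104 were set on the step from wild-type sham to T497A sham. Their median was 0.685 of that step in wild-type TAC and 0.0321 of it in T497A TAC. For these genes wild-type TAC thus lay nearer T497A sham, and T497A TAC nearer wild-type sham. None of the 10 enzyme genes was among the 104. Sex or origin and the T497A sham label cannot be told apart, so comparisons that do not contrast these libraries are given as well. Those comparisons do not avoid the difference in the 104 genes, which also separates the TAC groups. By the medians above, it separates wild-type TAC from wild-type sham and T497A TAC from T497A sham as well. The TAC response of each genotype and the interaction therefore cross it too. Prkca itself was at 44.4, 33.8, 50.3 and 46.2 CPM in wild-type sham, T497A sham, wild-type TAC and T497A TAC. It was called lower in T497A between the sham groups (-0.39 ± 0.07 on the log2 scale, adjusted p = 0.00557). Between the TAC groups it was not called (-0.12 ± 0.07, adjusted p = 0.210). A point mutation leaves no mark in gene counts, so the genotype labels were not checked by Prkca.

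The cell type label reads cardiomyocyte and the tissue label left ventricle. Markers of other cells were present in every group: 7 fibroblast markers summed to 1908 to 3277 CPM, 7 endothelial markers to 727 to 1185 CPM and 7 mural markers to 1165 to 1602 CPM over the 12 libraries. The counts were treated as those of tissue. In such tissue, more cells of a type and more RNA per cell cannot be told apart.

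Pressure overload in the wild-type ventricle was accompanied by higher levels of nearly all of these enzymes. After TAC 9 of the 10 genes rose and none fell, where 49.9% of all genes tested were called, with 25.9% higher and 24% lower. The libraries of the groups did not overlap for the same 9, all higher, as for 31.2% of all genes that were higher and 29% that were lower. The median log2 fold change of the 10 was 2.11, against 0.03 for all genes tested. The 5 lysyl oxidases, which act outside the cell, all rose, with a median of 2.78. Both lysyl hydroxylases rose, and of the 3 prolyl 4-hydroxylase subunits P4ha1 and P4ha3 rose while P4ha2 was not called. Scaled by library totals alone, the median of all genes moved to 0.36, and P4ha2 was then called higher (0.50, adjusted p = 0.0109).

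Lox, the founding lysyl oxidase, which crosslinks collagen and elastin, had 5.80, 7.72 and 5.02 CPM after sham in wild type and 184, 371 and 118 CPM after TAC. In T497A it had 6.86, 4.98 and 6.32 CPM after sham and 22.4, 24.2 and 8.91 CPM after TAC. The lowest wild-type TAC library was far above every other library outside its group, and the T497A TAC libraries lay between that group and the shams, without overlap on either side. The fitted log2 fold change in wild type was 5.18 ± 0.57 (36.4-fold, adjusted p = 7.94e-05). In T497A it was 1.61 ± 0.51 with an adjusted p of 0.0517, just over the threshold, and over the alternatives this p ran from 0.00351 to 0.150. Without T497A TAC replicate 3, the lowest of its group, the T497A value was 1.95 (adjusted p = 0.0241).

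Loxl1, an oxidase best known for its part in elastic fibres, had 43.3, 40.8 and 35.4 CPM in wild-type sham and 207, 316 and 178 CPM in wild-type TAC. The T497A libraries had 18.5, 30.8 and 29.7 CPM after sham and 76.6, 81.6 and 64.4 CPM after TAC. All 4 groups were separate, with T497A sham lowest and wild-type TAC highest. The gene rose by 2.55 ± 0.26 on the log2 scale in wild type (adjusted p = 2.87e-05) and by 1.49 ± 0.25 in T497A (adjusted p = 0.00258).

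Loxl2, which also oxidises collagen IV of basement membranes, was even after TAC, with 131, 124 and 131 CPM in wild type. It had 17.3, 22.1 and 16.7 CPM in wild-type sham, 10.4, 18.9 and 12 CPM in T497A sham and 36.8, 49.7 and 43.2 CPM in T497A TAC. The sham groups overlapped, and each TAC group lay above both of them. The log2 fold change was 2.78 ± 0.21 in wild type (adjusted p = 2.86e-06) and 1.65 ± 0.21 in T497A (adjusted p = 0.000389), and the gene was called in both.

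Loxl3, an oxidase with several scavenger receptor domains like Loxl2 and Loxl4, had 6.14, 5.25 and 5.75 CPM in wild-type sham and 43.8, 80.8 and 32.7 CPM in wild-type TAC. In T497A it had 6.14, 5.71 and 6.86 CPM after sham and 9.23, 10.7 and 8.37 CPM after TAC. It rose in wild type by 3.20 ± 0.30 (adjusted p = 1.40e-05). In T497A the TAC libraries were all above the shams, yet the fitted value of 0.60 ± 0.29 was not called (adjusted p = 0.173); without wild-type TAC replicate 2, which enters only through the shared estimate of the spread, its adjusted p was 0.00205. Loxl3 shares 535 exonic bases with Htra2 on the other strand, and the strand setting of the counting is not given in the sources used here. Htra2 was at group means of 16.6 to 18.9 CPM and had a log2 fold change of -0.19 in wild type.

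Loxl4 was the least abundant oxidase per length. Its libraries had 1.64, 1.98 and 1.32 CPM in wild-type sham, 0.898, 1.49 and 1.07 CPM in T497A sham, 4.58, 5.42 and 5.60 CPM in wild-type TAC and 2.60, 3.00 and 2.33 CPM in T497A TAC. Its groups had the same order as those of Loxl1 and Loxl2, with overlap between the shams alone. It rose by 1.66 ± 0.21 in wild type (adjusted p = 1.55e-05) and by 1.19 ± 0.22 in T497A (adjusted p = 0.00126).

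**Figure D1:**
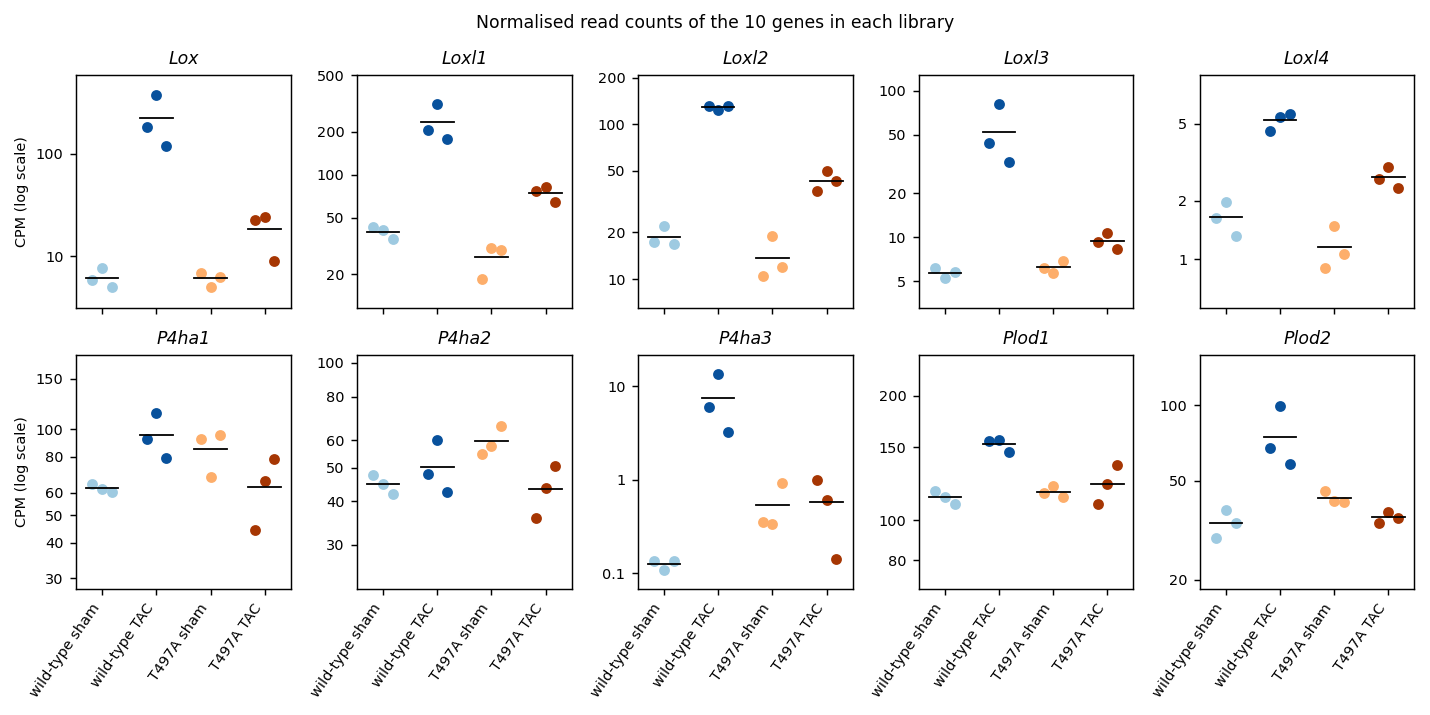
Normalised read counts (CPM, log scale, with a separate axis for each gene) in the 12 libraries, by group; points are libraries and bars are means of 3. Wild-type TAC libraries lie above all others for the 5 oxidases, P4ha3, Plod1 and Plod2, while P4ha1 and P4ha2 overlap between groups.

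Among the prolyl 4-hydroxylase subunits P4ha3 stood apart from P4ha1 and P4ha2, whose changes were small. P4ha1, the main alpha subunit in most tissues, had 64.1, 61.9 and 60.3 CPM in wild-type sham and 92.2, 114 and 79.5 CPM in wild-type TAC. In T497A it had 92.7, 68.2 and 95.8 CPM after sham and 44.2, 65.8 and 78.6 CPM after TAC. Wild-type TAC was above wild-type sham in each library but overlapped T497A sham. The rise in wild type was 0.61 ± 0.21 (adjusted p = 0.0360), and the value in T497A, -0.44 ± 0.21, was not called (adjusted p = 0.166). The wild-type call was the weakest of the 9: it was lost in 8 of 21 alternatives, among them leaving out any wild-type sham library, wild-type TAC replicate 1 or 2 or T497A TAC replicate 2, with adjusted p up to 0.156.

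P4ha2, the second collagen prolyl 4-hydroxylase subunit, had 47.5, 45.0 and 42.1 CPM in wild-type sham and 48.0, 60.0 and 42.7 CPM in wild-type TAC. These overlapped, and the log2 fold change of 0.16 ± 0.14 was not called (adjusted p = 0.350). In T497A it had 54.8, 57.9 and 65.8 CPM after sham and 36.0, 43.8 and 50.4 CPM after TAC. It fell by 0.45 ± 0.14 on the log2 scale there (adjusted p = 0.0300), the single member that fell with TAC in either genotype. That fall was lost in 6 of 20 alternatives, with adjusted p of 0.0594, 0.109, 0.0931 and 0.0818 without T497A sham replicate 2, T497A sham replicate 3, T497A TAC replicate 1 and T497A TAC replicate 2. Against wild-type sham in place of T497A sham, P4ha2 in T497A TAC differed by -0.05 ± 0.14 (adjusted p = 0.875).

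P4ha3, the rarest subunit, had 0.136, 0.110 and 0.135 CPM in wild-type sham, which rests on 8, 6 and 8 reads. After TAC the wild-type libraries had 6.07, 13.5 and 3.26 CPM, or 454, 1031 and 259 reads. T497A libraries had 0.359, 0.335 and 0.932 CPM after sham and 1.00, 0.615 and 0.143 CPM after TAC, the last from 10 reads. The wild-type TAC libraries were separate from all others, and the T497A groups overlapped each other. The fitted rise in wild type was 5.88 ± 0.84 (58.9-fold, adjusted p = 0.000201), the largest of the 10, and 5.17 without wild-type TAC replicate 2. In T497A the value was 0.11 ± 0.73 (adjusted p = 0.935), an error too wide to bound the change closely.

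The 250 bases before the RefSeq start of the 3 subunit genes are shown here. Whether they bear on the response of P4ha3 or of the other subunits was not tested. Capitals mark the core letters that hypoxia-inducible factors bind, ACGTG or GCGTG on either strand (CACGT or CACGC when read on the strand shown). All 3 genes lie on the plus strand of GRCm38.p6, and the windows are chr10:59323046-59323295 for P4ha1, chr11:54100674-54100923 for P4ha2 and chr7:100285270-100285519 for P4ha3. None overlaps an annotated exon. The P4ha2 window lies inside the GENCODE gene, downstream of its outermost start.
P4ha1: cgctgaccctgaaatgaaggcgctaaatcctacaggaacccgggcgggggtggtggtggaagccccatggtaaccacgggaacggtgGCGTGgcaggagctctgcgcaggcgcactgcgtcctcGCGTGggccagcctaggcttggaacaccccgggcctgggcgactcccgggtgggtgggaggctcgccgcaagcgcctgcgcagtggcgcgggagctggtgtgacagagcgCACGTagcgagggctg
P4ha2: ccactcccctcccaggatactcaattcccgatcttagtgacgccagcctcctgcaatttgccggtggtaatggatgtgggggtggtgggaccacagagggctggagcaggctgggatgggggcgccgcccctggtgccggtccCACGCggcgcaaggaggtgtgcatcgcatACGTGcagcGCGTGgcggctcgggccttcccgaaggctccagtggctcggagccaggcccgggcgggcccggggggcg
P4ha3: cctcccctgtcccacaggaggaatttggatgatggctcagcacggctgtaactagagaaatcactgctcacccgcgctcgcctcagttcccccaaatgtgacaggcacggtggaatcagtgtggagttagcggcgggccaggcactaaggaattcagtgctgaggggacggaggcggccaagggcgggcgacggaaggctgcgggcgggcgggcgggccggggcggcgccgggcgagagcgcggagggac
P4ha1 and P4ha2 each hold 3 matches (1 of ACGTG and 2 of GCGTG) and P4ha3 holds 0. At least 1 match was found in 38.6% of 32851 RefSeq windows of the same length and 3 or more in 6.58%. Loxl4 and Plod1, the other members in that table, hold 1 match each. GGAATG, the core letters bound by TEAD factors, and CAGACA, letters bound by Smad proteins, were found on neither strand in any of the 5 windows, against 12.6% and 17.1% of all windows. The shares over all windows are not matched for base content, and the 5 windows are 61.6 to 76% G or C. A match is a run of letters and not a measured binding site.

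Plod1 and Plod2 hydroxylate lysines of collagen, Plod1 mainly in the helix and Plod2 in the telopeptides at the chain ends. Plod1 was abundant and even, with 118, 114 and 110 CPM in wild-type sham, 156, 157 and 146 CPM in wild-type TAC, 116, 121 and 114 CPM in T497A sham and 109, 123 and 136 CPM in T497A TAC. The wild-type TAC libraries were above all others, and the other 3 groups overlapped. Its rise in wild type was small but far over its error, at 0.43 ± 0.07 (1.34-fold, adjusted p = 0.000145), and its value in T497A was 0.07 ± 0.07 (adjusted p = 0.533).

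Plod2 had 29.5, 38.1 and 33.8 CPM in wild-type sham, 67.5, 99.4 and 58.1 CPM in wild-type TAC, 45.3, 41.3 and 41.0 CPM in T497A sham and 33.8, 37.5 and 35.4 CPM in T497A TAC. Wild-type TAC stood above the rest, while T497A TAC lay below T497A sham and within the range of wild-type sham. The rise in wild type was 1.15 ± 0.17 (2.22-fold, adjusted p = 0.000182), and the T497A value of -0.26 ± 0.17 was not called (adjusted p = 0.303).

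In T497A ventricle, TAC was thus followed by rises of 3 genes (Loxl1, Loxl2 and Loxl4) and a fall of 1 (P4ha2), where 24.4% of all genes tested were called, 12.9% higher and 11.4% lower. The libraries did not overlap for 5 genes that were higher (the oxidases) and 2 that were lower (P4ha2 and Plod2), against 20.9% and 19.8% of all genes. The median log2 fold change of the 10 was 0.36, against 0.00 for all genes. The 3 genes that rose are all oxidases, and neither lysyl hydroxylase was called. Without wild-type TAC replicate 2, whose levels enter this comparison only through the shared spread, 7 members were called (5 higher and 2 lower).

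**Figure D2:**
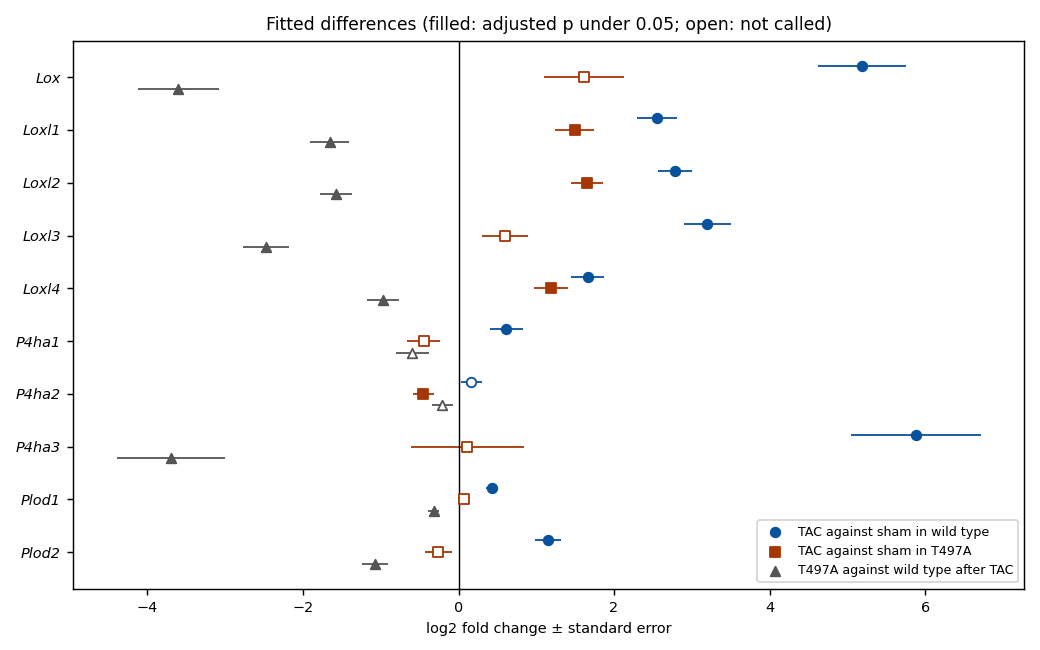
Log2 fold changes of the 10 genes in 3 comparisons, with bars of 1 standard error; filled symbols have an adjusted p under 0.05. Wild-type TAC values lie right of 0 for all 10 genes and reach 5.18 for Lox and 5.88 for P4ha3, while the T497A TAC values lie between -0.45 and 1.65.

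The direct comparison of the genotypes after TAC had 8 of the 10 genes lower in T497A and 0 higher, where 35.7% of all genes tested were called, 17.9% lower and 17.8% higher. Sham libraries enter it only through the shared filter, scaling and spread. The median log2 difference was -1.32, against -0.02 for all genes. All 5 oxidases were lower: Lox by -3.60 ± 0.52 (adjusted p = 0.000805), Loxl3 by -2.48 ± 0.29 (adjusted p = 0.000141), and Loxl1, Loxl2 and Loxl4 by -1.66 ± 0.25, -1.57 ± 0.20 and -0.98 ± 0.21. P4ha3 was lower by -3.70 ± 0.69 (adjusted p = 0.00213), or -2.99 without wild-type TAC replicate 2 and -4.33 without T497A TAC replicate 1. Plod2 was lower by -1.08 ± 0.17 (adjusted p = 0.000572) and Plod1 by -0.32 ± 0.07 (adjusted p = 0.00255). P4ha1, at -0.60 ± 0.21, just missed the threshold (adjusted p = 0.0534) and passed it in 7 of 21 alternatives, and P4ha2, at -0.21 ± 0.14, was not called (adjusted p = 0.255). The libraries of the genotypes did not overlap for 9 genes, all lower in T497A, which held for 25.3% of all genes, with 24.2% higher.

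The difference between the TAC responses, tested as the interaction of genotype and surgery, was called for 9 of the 10 genes, all with a lower log2 fold change in T497A, where 29.5% of all genes tested were called, 14.2% with a negative interaction and 15.3% with a positive one. P4ha3 had the largest value, -5.77 ± 1.12 (adjusted p = 0.00368). It was -5.06 without wild-type TAC replicate 2, -5.13 without T497A sham replicate 3 and -6.40 without T497A TAC replicate 1. Lox followed at -3.57 ± 0.72 (adjusted p = 0.00658), then Loxl3 at -2.60 ± 0.41 (adjusted p = 0.00134) and Plod2 at -1.41 ± 0.24 (adjusted p = 0.00141). Loxl2 was at -1.13 ± 0.29 (adjusted p = 0.0152) and Plod1 at -0.36 ± 0.10 (adjusted p = 0.0141). Loxl1 at -1.06 ± 0.35 (adjusted p = 0.0465), P4ha1 at -1.06 ± 0.30 (adjusted p = 0.0254) and P4ha2 at -0.62 ± 0.19 (adjusted p = 0.0306) passed narrowly. These 3 lost the call in 11, 7 and 8 of 19 alternatives, with adjusted p up to 0.104, 0.0751 and 0.0888, and in leave-out fits the count ran from 6 to 9. Loxl4 was the exception, at -0.47 ± 0.30 (adjusted p = 0.274).

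In the sham groups no enzyme gene differed between the genotypes at the threshold, where 5.79% of all genes tested did, 2.99% higher and 2.8% lower in T497A. Libraries did not overlap for 4 genes that were higher (the P4ha genes and Plod2) and 1 that was lower (Loxl1), against 12.9% and 13.5% of all genes. At an unadjusted p under 0.05 there were 4, with Loxl1 (-0.59 ± 0.25) and Loxl4 (-0.51 ± 0.22) lower in T497A and P4ha2 (0.41 ± 0.14) and P4ha3 (2.06 ± 0.91) higher, all from edgeR's fit over 12 libraries. DESeq2 and limma-voom each called 1 gene, P4ha2, and edgeR fitted to the sham libraries alone called 3 (P4ha2, P4ha3 and Plod2, all higher in T497A). The P4ha3 value was 1.43 without T497A sham replicate 3, which had the highest P4ha3 of that group and also the highest sum of 6 atrial markers, at 849 CPM against 211 and 238 CPM in the other libraries of the group.

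With wild-type sham in place of T497A sham as the reference, 1 gene, Loxl2, was higher in T497A TAC (1.21 ± 0.21, adjusted p = 0.00682) and 0 were lower, where 10% of all genes tested were called, 6.12% higher and 3.9% lower. Libraries did not overlap for 6 genes, all higher (the oxidases and P4ha3), against 17% of all genes higher and 16.6% lower. Loxl1 at 0.90 ± 0.25, Loxl4 at 0.68 ± 0.21 and Lox at 1.58 ± 0.51 had adjusted p of 0.0514, 0.0567 and 0.0931. This count was the least stable, with 5 genes by the DESeq2 test and 3 in a fit without the T497A sham libraries. P4ha1, P4ha2, Plod1 and Plod2 lay between -0.05 and 0.11 on the log2 scale. Wild-type TAC against T497A sham had 8 genes higher and 0 lower, where 50.2% of all genes were called, 25.6% higher and 24.6% lower. The libraries of the same 8 did not overlap, against 30% of all genes higher and 28.4% lower, with P4ha1 and P4ha2 not called (0.15 ± 0.21 and -0.24 ± 0.14).

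Markers of some cell types moved along with these differences, and those of others did not. The summed level of 7 activated fibroblast markers (Postn, Cthrc1, Meox1, Fap, Comp, Thbs4 and Ccn4) was 91.8 to 138 CPM in wild-type sham, 88.9 to 124 CPM in T497A sham, 1502 to 3219 CPM in wild-type TAC and 174 to 385 CPM in T497A TAC. All 7 rose with TAC in wild type and 3 in T497A. The 7 general fibroblast markers summed to 2216 to 2507, 2556 to 3277, 1910 to 2018 and 1908 to 2376 CPM in the same order, so their sum was not higher after TAC. Most of that sum was Gsn, which fell in wild type from 1593 to 586 CPM (group means), while the other 6 markers rose there and the median log2 fold change of the 7 was 0.61. The 7 macrophage markers went from 261 to 311 CPM in wild-type sham to 540 to 847 CPM in wild-type TAC, with 298 to 346 and 363 to 390 CPM in the T497A groups. The 7 cardiomyocyte markers fell in wild type, from sums of 58946 to 64118 CPM to 28514 to 34354 CPM. In T497A their sums were 62859 to 63943 CPM after sham and 51634 to 55235 CPM after TAC, and 3 of the 7 fell. Of 7 endothelial markers, 5 rose with TAC in wild type and 4 in T497A, and 0 were called between the genotypes after TAC. Of 7 mural markers, 3 rose and 2 fell in wild type and 2 rose in T497A. After TAC, 2 mural markers were higher and 2 lower in T497A. Of all genes 49.9%, 24.4% and 35.7% were called in these comparisons. None of these markers was at 0 throughout a group. Markers of atrial and fat tissue moved with TAC in T497A: 4 of 5 tested atrial markers and 3 of 4 adipocyte markers fell, with median log2 fold changes of -3.56 and -3.71, from sums of 211 to 849 and 2.43 to 11.4 CPM to sums of 48.1 to 75.0 and 0.243 to 0.923 CPM. Without T497A sham replicate 3, the highest in both, 3 members were called with TAC in T497A (all higher) and 6 in the interaction, with P4ha2 lost from the first and Loxl1, P4ha1 and P4ha2 from the second. Beyond that, the part of these cell types in the enzyme differences was not tested.

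The make-up of each enzyme family also shifted, which was read per length, as CPM per kb of exon. In wild-type sham the order of levels was Plod1, P4ha1, Loxl1, P4ha2, Plod2, Loxl2, Lox, Loxl3, Loxl4 and P4ha3, from 16.8 ± 0.579 down to 0.0406 ± 0.00475 CPM per kb (SD, n = 3), and only P4ha2 and Plod2, and Lox and Loxl3, overlapped as neighbours. In wild-type TAC the order was Loxl1, Lox, Loxl2, P4ha1, Plod1, Plod2, Loxl3, P4ha2, P4ha3 and Loxl4, with Loxl1 at 71.0 ± 22.1 and Loxl4 at 1.23 ± 0.128 CPM per kb. There the neighbours that did not overlap were Lox and Loxl2, Plod1 and Plod2, and P4ha2 and P4ha3. In T497A sham P4ha1 led at 20.8 ± 3.67 CPM per kb with Plod1 next at 17.3 ± 0.514, which overlapped it. In T497A TAC Loxl1 led at 22.5 ± 2.68 CPM per kb with Plod1 next at 18.1 ± 1.94, which also overlapped the leading gene.

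The 5 oxidases together had 18.5 ± 1.76 CPM per kb in wild-type sham and 154 ± 54.4 CPM per kb in wild-type TAC (SD, n = 3). They had 13.4 ± 2.59 in T497A sham and 37.0 ± 5.15 CPM per kb in T497A TAC. Within that sum the share of Lox was 6.30%, 8.21% and 6.39% in wild-type sham, 28.3%, 36.1% and 22.2% in wild-type TAC, 13.6%, 6.74% and 9.26% in T497A sham and 12.6%, 12% and 5.87% in T497A TAC. The wild-type TAC libraries were above all others, and the T497A groups overlapped. The share of Loxl1 went the other way, from 65.4% ± 2.68 in wild-type sham to 46.4% ± 2.00 in wild-type TAC, and was 58.9% ± 4.99 and 60.9% ± 1.75 in T497A sham and TAC. P4ha3 made up 0.182% ± 0.0223 of the prolyl 4-hydroxylase subunits in wild-type sham and 6.75% ± 3.34 in wild-type TAC. Among the 3 lysyl hydroxylases, Plod2 was at 20.8% ± 2.01 in wild-type sham and 26.7% ± 3.69 in wild-type TAC, and Plod1 at 55.8% ± 2.97 and 44.4% ± 4.94. Such shares are descriptions, since an exact test of 3 against 3 libraries cannot go below 0.1.

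**Figure D3:**
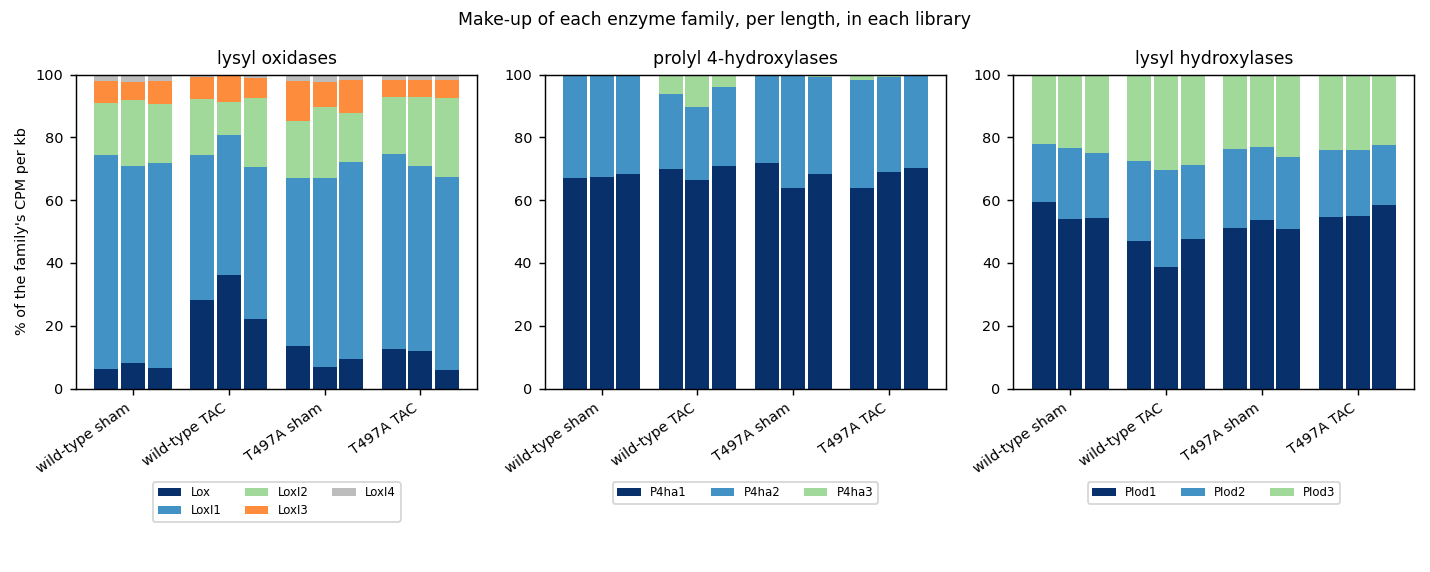
Share of each gene in the CPM per kb of its family (%), 1 bar for each of the 12 libraries. Lox takes 22.2 to 36.1% of the lysyl oxidase sum in wild-type TAC libraries and at most 13.6% in the other 9.

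As classes, the enzymes rose less than the fibrillar collagens they act on. Per 1000 reads of Col1a1, Col1a2 and Col3a1, the 5 oxidases had 102, 98.9 and 103 reads in wild-type sham and 66.1, 61.2 and 71.3 in wild-type TAC. The 3 prolyl 4-hydroxylase subunits had 154, 136 and 165 reads in wild-type sham and 16.9, 12.8 and 19.3 in wild-type TAC, and Plod1 with Plod2 had 202, 193 and 231 reads and then 25.8, 17.4 and 31.3. The wild-type TAC libraries were thus the lowest of all 12 in each of these ratios. Lox went the other way, with 7.98, 9.81 and 8.08 reads per 1000 collagen reads in wild-type sham and 21.3, 25.3 and 18.1 in wild-type TAC. So did P4ha3, whose few reads are hidden in the sum of the subunits, with 0.188, 0.140 and 0.218 in wild-type sham and 0.702, 0.922 and 0.501 in wild-type TAC. Neither rose on this scale in T497A. Lox had means of 11.7 ± 4.37 in T497A sham and 10.5 ± 2.78 in T497A TAC (SD, n = 3). P4ha3 had 0.849, 0.503 and 1.70 in T497A sham, which overlapped wild-type TAC, and 0.537, 0.309 and 0.117 in T497A TAC. In T497A the oxidases had means of 98.7 ± 4.96 after sham and 89.2 ± 12.8 after TAC (SD, n = 3), the subunits 278 ± 81.2 and 68.0 ± 32.7, and the Plod genes 303 ± 71.6 and 98.8 ± 35.1. The T497A groups overlapped for the oxidases, and did not for the subunits or the Plod genes. The 3 collagens summed to 622 to 787 CPM in wild-type sham, 423 to 666 CPM in T497A sham, 6514 to 14681 CPM in wild-type TAC and 1228 to 1990 CPM in T497A TAC.

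**Figure D4:**
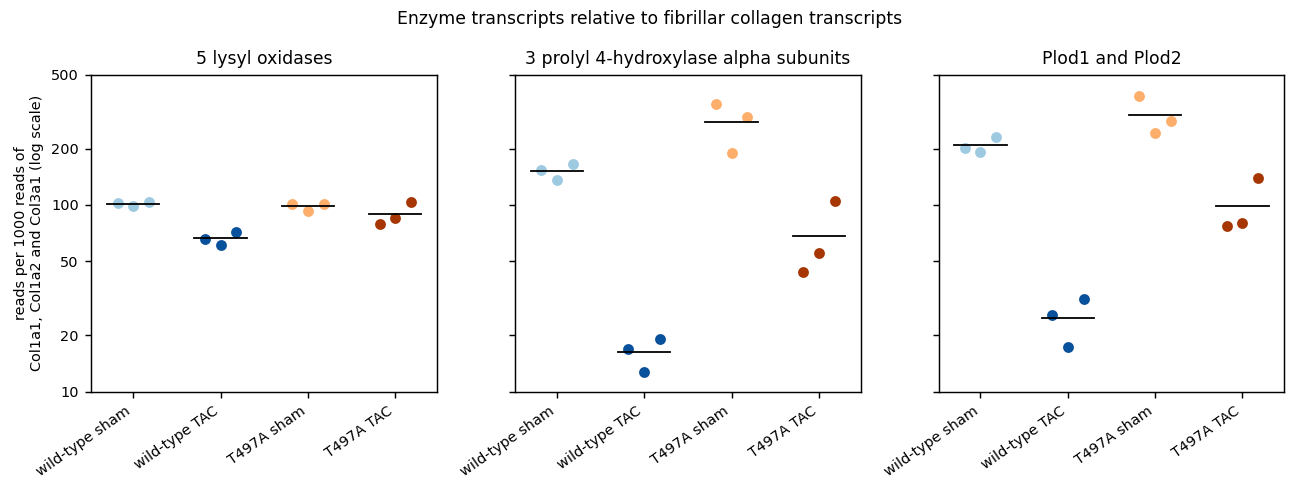
Reads of 3 enzyme classes per 1000 reads of Col1a1, Col1a2 and Col3a1 (log scale) in each library, with group means of 3 as bars. Wild-type TAC libraries are lowest in each panel, at 61.2 to 71.3 for the oxidases and 12.8 to 19.3 for the prolyl 4-hydroxylase subunits.

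Related genes of the pathway were read from 5 lists. Of 23 genes of collagen maturation in the endoplasmic reticulum, 19 rose and 3 fell with TAC in wild type, 4 rose and 2 fell in T497A, and 18 were lower and 2 higher in T497A than in wild type after TAC. Of all genes 49.9%, 24.4% and 35.7% were called in these comparisons, so the T497A count is near that background. Sparc, a collagen-binding chaperone that is also secreted, rose by 2.75 ± 0.16 in wild type and 1.06 ± 0.15 in T497A. Crtap, a partner of prolyl 3-hydroxylase, and Ppib, a prolyl isomerase, rose in wild type by 0.99 ± 0.09 and 0.88 ± 0.08, while Mia2, of the export sites for procollagen, fell by 0.62 on the log2 scale. In T497A Tmem38b fell by 0.46, and Sec24d, a coat protein of export vesicles, and Creb3l1, a transcription factor for secretory genes, rose by 0.38 ± 0.07 and 0.89 ± 0.20. After TAC, Plod3, the lysyl hydroxylase that also adds sugars, and P4hb, the common beta subunit of prolyl 4-hydroxylase, were lower in T497A by -0.99 ± 0.11 and -0.63 ± 0.08, beside Sparc (-1.72 ± 0.15) and Crtap (-0.84 ± 0.09).

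Of 14 genes for procollagen processing and partners of lysyl oxidases, 12 rose with TAC in wild type and 6 in T497A, none fell, and 9 were lower in T497A after TAC, where 25.9% and 12.9% of all genes rose and 17.9% were lower. Bmp1, the protease that activates prolysyl oxidase and trims procollagen, rose by 1.71 ± 0.13 in wild type. Its enhancer Pcolce rose by 1.92 ± 0.12, the procollagen N-proteinase Adamts2 by 2.67 ± 0.19 and the elastic fibre protein Efemp2 by 1.97 ± 0.22. In T497A, Adamts2 rose by 1.23 ± 0.18, Adamts14 by 0.78 ± 0.17, Pcolce by 0.50 ± 0.12 and Postn, a matricellular protein that is also in the activated fibroblast list, by 2.02 ± 0.42. After TAC, Pcolce, Bmp1, Adamts2 and Efemp2 differed by -1.44 ± 0.12, -1.26 ± 0.12, -1.67 ± 0.18 and -1.53 ± 0.21.

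Another list held 11 matrix genes: collagen chains, Eln and the microfibril gene Fbn1, which is neither collagen nor elastin. Of these 11 genes, 11 rose in wild type, 10 in T497A and 11 were lower in T497A after TAC (25.9%, 12.9% and 17.9% of all genes), with medians of 3.70, 1.46 and -2.14. Between the sham groups 4 of them (Col4a1, Col4a2, Col5a3 and Fbn1) were lower in T497A and 0 higher, where 2.8% of all genes were lower. Their rises with TAC in T497A start from that lower level. The basement membrane chains Col4a2 and Col4a1 rose by 1.73 ± 0.09 and 1.89 ± 0.10 in wild type and by 1.16 ± 0.08 and 1.36 ± 0.09 in T497A. Col5a3, a minor fibrillar chain, rose by 1.71 ± 0.10 and 1.85 ± 0.10, and the microfibril gene Fbn1 by 3.07 ± 0.21 and 2.14 ± 0.20. After TAC, Col4a2, Col4a1, Col5a1 and Fbn1 differed by -0.96 ± 0.08, -0.98 ± 0.09, -1.85 ± 0.19 and -1.73 ± 0.19.

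P4ha1, P4ha2, Plod2 and Lox are known as targets of hypoxia-inducible factors, and TGF-beta signalling is known to raise lysyl oxidases. Of 16 hypoxia-inducible genes, 2 rose and 3 fell in wild type, 2 rose and 6 fell in T497A, and 6 were lower and 2 higher in T497A after TAC, where 49.9%, 24.4% and 35.7% of all genes were called. With library totals in place of scaling factors the wild-type count was 9 higher and 2 lower, so its balance rests on the scaling. In wild type Car9, a carbonic anhydrase, rose by 2.43 ± 0.49 from low levels, and Hk2, Egln1 and Pdk1 fell by 0.79, 0.84 and 0.26 on the log2 scale. In T497A Egln1, Bnip3, Hk2 and Ldha fell by 0.71, 0.85, 0.48 and 0.27. After TAC, Hk2 (0.43 ± 0.07) and Egln1 (0.31 ± 0.08) were higher in T497A, and Slc2a1 (-0.40 ± 0.09) and Car9 (-1.83 ± 0.47) were lower.

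Of 12 genes that respond to TGF-beta or YAP, 12 rose in wild type, 4 rose in T497A and none fell, and 7 were lower in T497A after TAC, where 25.9% and 12.9% of all genes rose and 17.9% were lower. That 7 was 11 with limma-voom and with library totals. Ankrd1 rose by 1.70 ± 0.10 in wild type and 2.35 ± 0.10 in T497A, Tgfb1 by 0.74 ± 0.08 and 0.85 ± 0.08, and Tgfb2 by 1.93 ± 0.13 and 0.84 ± 0.12. Pmepa1, an inhibitor of the pathway, rose by 1.66 ± 0.17 in wild type, and Ccn1 by 0.58 ± 0.14 in T497A. After TAC, Tgfb2, Pmepa1, Tgfb3 and Ltbp2 differed by -1.35 ± 0.12, -1.22 ± 0.17, -1.64 ± 0.26 and -3.46 ± 0.54.

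**Figure D5:**
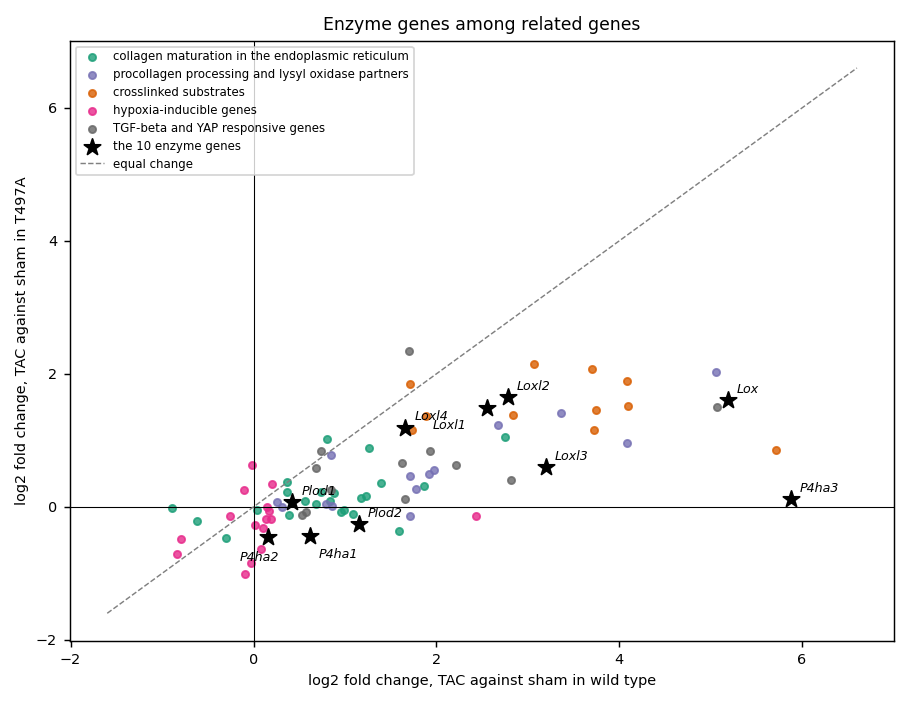
Log2 fold change with TAC in T497A (vertical) against that in wild type (horizontal) for the 10 enzyme genes (stars) and the genes of 5 related lists; the dashed line marks equal change. All 10 stars lie below the line, P4ha3 (5.88, 0.11) and Lox (5.18, 1.61) farthest.

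Likeness of pattern was measured as the root mean square difference of log2 CPM, each gene centred on its mean over the 12 libraries, over the genes whose mean level reached 1 CPM. Nearest to Lox were Ltbp2 (0.27), Postn (0.34) and Frem1 (0.38), and nearest to Loxl1 were Col5a1 (0.14), Adamts2 (0.17) and Lhfpl2 (0.17). Loxl2 had Col15a1 (0.22), C1qtnf6 (0.25) and Col5a1 (0.26) as neighbours, and Loxl3 had Col16a1 (0.15), Mfap5 (0.21) and Sfrp1 (0.22). Loxl4 had collagen IV chains nearest, Col4a2 (0.18) and Col4a1 (0.20), then Gask1b (0.21). Neighbours of the hydroxylases were of mixed kinds: Psd (0.16), Cmklr1 (0.17) and Mpzl3 (0.17) for P4ha1, Hyou1 (0.11), Timp3 (0.12) and Sphk2 (0.12) for P4ha2, and Ergic1 (0.06), Klc1 (0.06) and Tfdp1 (0.06) for Plod1. Plod2 had its paralog Plod3 (0.12) nearest, then Lyz2 (0.13) and Pde1a (0.15). P4ha3 had no close neighbour, with Ptn (0.70), Nppa (0.72) and Col12a1 (0.72) at the top. Among the 10 themselves P4ha1 and P4ha2 were closest (0.23) and Lox and P4ha2 farthest apart (2.15). The distances were not scaled by the size of a gene's changes. Genes that change little therefore lie close together whatever their pattern, and genes that change much lie far from most others. These distances describe the same 12 libraries and carry no test.

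Per the GENCODE M21 annotation of GRCm38, the 10 are protein-coding genes on 9 chromosomes, and reads were counted over their exons. The oxidases lie at chr18:52516067-52529867 (Lox, minus strand), chr9:58287738-58313186 (Loxl1, minus), chr14:69609068-69695834 (Loxl2, plus), chr6:83034173-83052562 (Loxl3, plus) and chr19:42593982-42612813 (Loxl4, minus). The hydroxylases lie at chr10:59323296-59373304 (P4ha1, plus), chr11:54100095-54131665 (P4ha2, plus), chr7:100285520-100319699 (P4ha3, plus), chr4:147909753-147936767 (Plod1, minus) and chr9:92542223-92608428 (Plod2, plus). Loxl2 overlaps the antisense gene Gm27177 by 301 exonic bases, which had 0 counts in every library, and Plod2 overlaps the unnamed model Gm38391 by 346.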

How the data were processed

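Per the labels' protocols, RNA came from RNeasy columns, and mRNA libraries (KAPA mRNA HyperPrep) were read from a single end on a NextSeq2000. The submitters' processing notes list Trim Galore 0.6.4, STAR 2.7.3a, featureCounts (Subread 1.6.3) and limma 3.50.3, with the builds mm10 and GRCh38 and no role for either. The authors deposited whole-number read counts for each gene in 12 columns. These were matched to samples by genotype, surgery and number, and some T497A sham columns write the genotype without its first letter. On the strand setting, the annotation release and the counting of multi-mapping reads, nothing is given in the sources used here. Of the 55401 gene IDs, 54349 are in GENCODE M21 with the same version, 55141 when versions are ignored, and 260 are not in it.

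Groups came from the labels. Counts were filtered with filterByExpr (17699 genes kept), scaled with TMM and tested with edgeR 4.0.16 (robust quasi-likelihood F test, R 4.3.3), with 1 mean per group over 12 libraries and Benjamini-Hochberg adjustment over all genes tested. Levels per length divide CPM by the kb of a gene's merged exons. The chi-square per degree of freedom of library pairs within a group was 10.6 to 138, more than sampling noise alone gives. No pair thus looked like repeat reads of the same library. Libraries made from the same RNA or animal are not excluded by this. The test was tested on simulated counts. The members, lists and tests were chosen with earlier results of these data known. Named are the 10 members in every comparison, up to 4 called genes with the smallest p of each related list in each TAC comparison and between the genotypes after TAC, and the 3 genes nearest to each member. Alternatives were DESeq2 1.42.0 size factors and its test, limma-voom (limma 3.58.1) with quality weights, library totals without scaling factors, no filter, at least 1 CPM in 6 libraries, a replicate block, only the groups compared, no T497A sham group, and each of the 12 libraries left out in turn. Atrial, adipocyte and erythroid markers, also summed, ranged over the libraries from 48.1 to 849, from 0.243 to 11.4 and from 118 to 313 CPM.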

Additional observations from a re-analysis of the deposited data

Results flagged for a closer look

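The TAC response differed between the genotypes, by a test of the difference itself, for 9 of the 10 genes. The response in T497A minus that in wild type was -3.57 for Lox, -1.06 for Loxl1, -1.13 for Loxl2 and -2.60 for Loxl3 on the log2 scale. For the prolyl 4-hydroxylase subunits it was -1.06 (P4ha1), -0.62 (P4ha2) and -5.77 (P4ha3), and for the lysyl hydroxylases -0.36 (Plod1) and -1.41 (Plod2). All 9 rest on the T497A sham libraries, which stand apart from the other 9 libraries in Xist and Ddx3y. The comparison of genotypes after TAC, which contrasts no sham group, called 7 of these 9, all but P4ha1 and P4ha2, and also Loxl4. It does not avoid the 104 autosomal genes that differ at least 4-fold between the sham groups. Of those, 95 had the opposite sign between the genotypes after TAC. By their medians the 104 also set TAC apart from sham within each genotype, so the interaction crosses them as well.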

How the results depend on the processing

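For single members, 1298 alternative values kept direction and side of the threshold, 57 gained a call, 40 lost one and 17, none of them called, changed sign. For counts of members, 124 alternatives stayed within 1.5 times of the reported count and 18 did not. Between the sham groups (0 called), the DESeq2 test and limma-voom gave 1 each, only the groups compared gave 3, and leaving out a library gave 0 to 2. T497A TAC against wild-type sham (1 called) gave 2 with no filter, 3 with library totals, limma-voom, the 1 CPM filter, the replicate block or no T497A sham group, 4 with only the groups compared, 5 with the DESeq2 test, and 1 to 5 without a library (5 without wild-type TAC replicate 2). TAC in T497A (4 called) gave 3 to 7 without a library, and TAC in wild type gave 8 to 9. The replicate block turned P4ha3 with TAC in T497A (0.11) to -0.066 and Lox between the shams (-0.03) to 0.038. It took the call from P4ha1 with TAC in wild type (adjusted p = 0.0631) and gave one to Lox with TAC in T497A (adjusted p = 0.0400). Deviations of same-numbered libraries correlated at -0.113 to 0.0742 and of others at -0.122 to 0.110. These values showed no pairing by number. They cannot exclude that equal numbers share a litter or a day, which the labels do not state. limma-voom gave -0.031 for P4ha3 with TAC in T497A. Library totals gave 0.021 for Lox between the shams, and for P4ha2 0.033 in T497A TAC against wild-type sham and 0.048 in wild-type TAC against T497A sham. Leave-out values that spanned 0 were -0.52 to 0.75 (P4ha3) and -0.011 to 0.14 (Plod1) with TAC in T497A, -0.16 to 0.16 (Lox) between the shams, and -0.18 to 0.22 (P4ha1), -0.17 to 0.071 (P4ha2) and -0.014 to 0.17 (Plod2) in T497A TAC against wild-type sham. Causes were not tested. Without scaling factors, genes higher and lower went from 4576 and 4255 to 8466 and 1891 with TAC in wild type, from 3156 and 3165 to 1458 and 6874 between genotypes after TAC, from 2700 and 2518 to 1175 and 5694 for the interaction, from 529 and 495 to 730 and 375 between the shams, from 1083 and 690 to 1597 and 335 in T497A TAC against wild-type sham, and from 4532 and 4359 to 7624 and 2193 in wild-type TAC against T497A sham. The DESeq2 test called 891 and 806 genes between the shams. In T497A TAC against wild-type sham it called 1488 and 1248, limma-voom 2047 and 1922, and only the groups compared 1651 and 1341. P4ha3 has 6 to 10 reads in 4 libraries, so its ratios are the least precise, and it has no value under the 1 CPM filter.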

Other observations

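Within wild-type TAC the same libraries were high or low for most of the enzymes. Replicate 2 was the highest of its group for 8 of the 10 genes, all but Loxl2 and Loxl4, and replicate 3 the lowest for 8. Replicate 2 also had the highest sum of activated fibroblast markers (3219 CPM against 1943 and 1502 CPM) and of macrophage markers (847 CPM against 606 and 540 CPM), and the lowest sum of cardiomyocyte markers (28514 CPM). Loxl2 went from 124 to 131 CPM over the same libraries and Loxl4 from 4.58 to 5.60 CPM. In T497A TAC, replicate 2 was highest for all 5 oxidases and Plod2, and replicate 3 had the lowest Lox (8.91 CPM), the lowest P4ha3 (0.143 CPM) and the lowest sum of activated fibroblast markers (174 CPM against 383 and 385 CPM).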
